A study of Mus musculus with 68 samples.

Results

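Chemokines are small secreted or membrane-tethered proteins that guide leukocytes through G protein-coupled receptors. Described here are 10 chemokine genes in mouse uterus: Cxcl14, Cxcl15, Ccl28, Cxcl12, Ccl2, Ccl7, Cxcl10, Cx3cl1, Cxcl1 and Cxcl2. They were chosen by name from the 30142 genes tested, and each was read by 1 probe set annotated to that gene alone. The uterus carries homeostatic chemokines, made by resting epithelium and stroma, and inflammatory ones, made on demand. After ovariectomy the organ is quiescent, and oestradiol (E2) then brings oedema, leukocyte entry and, later, epithelial proliferation. Insulin-like growth factor 1 (IGF1) is a growth factor that E2 induces in this tissue, and the series asks how far oestrogen receptor alpha (ERα, the product of Esr1) takes part in the response to it.

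Uterine RNA of ovariectomized mice was measured on 68 arrays in 25 groups, 18 of 3 arrays and 7 of 2. Each of 5 lines had vehicle tissue at 24 h and tissue at 2 h and 24 h after E2 or IGF1. One line was C57Bl6 from a supplier. The Ex3aERKO line, which carries an Esr1-null allele, came with wild-type littermates. ERaUtcKO mice, in which floxed Esr1 is deleted by Cre under the progesterone receptor promoter (Esr1f/f;PgrCre+), came with wild-type littermates of their own. Deletion in that line is limited to cells that have used this promoter. Mice were on a C57Bl6 background, and no ages are used here. E2 was given as 250 ng and IGF1 as 50 ug, each in 100 ul, or IGF1 came from a 3-day pump at 0.5 mg/ml; the labels do not say which mice had the pump. Vehicle tissue was taken only at 24 h, so at 2 h a treated group also differs from vehicle in time. The groups of 2 arrays lost an outlier that the authors removed after principal component analysis, so their spread may be understated. Nothing in the labels says that replicates were separate animals, so the p-values measure the spread between these samples.

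Values are log2 intensities. A level was called above control when it exceeded the 95th percentile of 23 antigenomic probe sets, which match no mouse sequence, on the same array; this percentile averaged 6.62 on C57Bl6 arrays, 5.53 on those of the Ex3aERKO experiment and 5.73 on those of the ERaUtcKO experiment. Probe sets of different genes cannot be set against each other, and the 3 mouse sets differ in array median (6.43 to 6.6, 5.82 to 6.15 and 6.26 to 6.62), so levels are ordered within a line only. Differences were fitted with limma over all 30142 genes, and a gene passed at a Benjamini-Hochberg adjusted p under 0.05. All errors beside differences are standard errors. In bulk tissue, fewer cells of a type and less RNA per cell cannot be told apart.

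As a check of the labels, Esr1 under vehicle differed by -2.39 ± 0.19 (limma adjusted p 1.8e-06) in Ex3aERKO and by -1.21 ± 0.11 (adjusted p 3.66e-07) in ERaUtcKO against littermates. Greb1, an early ERα target, rose by 4.88 ± 0.11 at 2 h of E2 in wild types (adjusted p 1.63e-31) and still by 1.66 ± 0.12 in ERaUtcKO (adjusted p 3.23e-08). In Ex3aERKO the same difference was -0.08 (adjusted p 0.984). All 9 measured luminal and general epithelial markers were above control in every group, as were all 7 of endometrial stroma. Of the 6 glandular markers, 0 to 2 were above control in a group; Prss28, Prss29 and Wfdc3 were above it in none. Some arrays stood apart. Summed neutrophil markers reached 15.27 on Ex3aERKO littermate IGF1 2 h replicate 2, 16.02 on Ex3aERKO IGF1 24 h replicate 2 and 15.10 on ERaUtcKO IGF1 24 h replicate 3, against 8.57 to 11.15 on the vehicle arrays of these 4 lines. Other high readings were 14.48 and 13.09 on ERaUtcKO IGF1 2 h replicates 2 and 3, 14.33 on ERaUtcKO E2 24 h replicate 2 and 13.06 on ERaUtcKO E2 2 h replicate 1. Summed fat, liver and pancreas markers were 15.67 to 17.55 on the C57Bl6 vehicle arrays and 17.39 on ERaUtcKO IGF1 2 h replicate 1. Many of the results that rest on these arrays, but not all, are also given without them, as a range over arrays left out, or by line. Since every ERaUtcKO IGF1 2 h array had a high reading, no range over arrays left out is free of them there. The part of these cells in any result was not tested unless a value is given.

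Proximal promoters are shown for 5 members that answered differently, so that the motifs below can be read against the values. Each runs from 250 bases before to 50 after the RefSeq transcription start (GRCm38.p6) and is written in the direction of the gene; capitals mark the motifs searched. Promoters were matched for 8 members. Cxcl15 and Ccl28 are epithelial members and Cxcl12 is the stromal one. Cxcl10 and Cxcl1 both carry an NF-kB consensus, and only the former passed a test, but Cxcl1 was above control on just 12 of 68 arrays. No link between motif and response was tested.
Cxcl15 (chr5:90794284-90794583, plus strand): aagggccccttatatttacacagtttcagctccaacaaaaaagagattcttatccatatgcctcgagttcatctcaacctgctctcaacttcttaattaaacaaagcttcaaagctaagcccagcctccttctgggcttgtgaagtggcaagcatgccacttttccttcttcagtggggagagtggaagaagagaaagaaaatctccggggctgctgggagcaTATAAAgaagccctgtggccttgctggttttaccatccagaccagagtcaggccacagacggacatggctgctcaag
Ccl28 (chr13:119623569-119623868, plus strand): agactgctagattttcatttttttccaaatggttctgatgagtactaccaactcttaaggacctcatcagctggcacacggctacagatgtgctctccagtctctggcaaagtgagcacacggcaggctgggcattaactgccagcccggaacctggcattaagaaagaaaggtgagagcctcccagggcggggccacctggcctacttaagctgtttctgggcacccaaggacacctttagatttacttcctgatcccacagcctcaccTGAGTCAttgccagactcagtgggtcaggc
Cxcl12 (chr6:117168285-117168584, plus strand): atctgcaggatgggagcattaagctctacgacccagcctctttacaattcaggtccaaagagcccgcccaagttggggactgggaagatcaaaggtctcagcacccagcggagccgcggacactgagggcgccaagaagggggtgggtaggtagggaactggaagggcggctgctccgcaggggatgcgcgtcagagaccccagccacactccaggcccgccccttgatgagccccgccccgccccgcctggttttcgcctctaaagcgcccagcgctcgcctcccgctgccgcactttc
Cxcl10 (chr5:92348840-92349139, minus strand): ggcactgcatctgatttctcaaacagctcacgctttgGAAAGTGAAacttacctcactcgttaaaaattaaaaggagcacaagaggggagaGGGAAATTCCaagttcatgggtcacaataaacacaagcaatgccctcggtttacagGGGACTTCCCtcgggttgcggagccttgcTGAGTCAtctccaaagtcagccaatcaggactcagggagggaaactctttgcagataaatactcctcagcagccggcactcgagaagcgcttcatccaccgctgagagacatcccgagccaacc
Cxcl1 (chr5:90890995-90891294, plus strand): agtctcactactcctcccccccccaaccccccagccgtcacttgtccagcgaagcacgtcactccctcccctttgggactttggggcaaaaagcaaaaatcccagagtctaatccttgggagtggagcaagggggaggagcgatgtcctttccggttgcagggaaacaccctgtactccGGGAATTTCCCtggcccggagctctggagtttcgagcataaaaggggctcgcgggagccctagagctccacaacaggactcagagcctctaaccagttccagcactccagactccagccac

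Both strands were searched. The Cxcl15 window holds a TATA box (TATAAA) at position -27 from the start, a motif found in 13.6% of the 32851 promoters in the table. The Ccl28 window holds an AP-1 motif (TGANTCA) at position 20, found in 7.81% of promoters. The Cxcl10 window holds an NF-kB consensus at positions -159 and -103, the core of the interferon-stimulated response element (GAAA, then 2 unspecified bases, then GAA) at -213 and AP-1 at -74; the shares of promoters with the NF-kB consensus and with this core are 4.51% and 8.56%. In the Cxcl1 window the NF-kB consensus reads on both strands at -71 and -70, and Cxcl2, whose sequence is not shown, has it at -97 and -96. Cxcl14 holds the interferon core at -172 and Cx3cl1 a TATA box at -6. No member's window holds the palindromic oestrogen response element (GGTCA, then 3 unspecified bases, then TGACC), which occurs in 23 promoters, or 0.07%, and the Cxcl12 window holds none of the motifs searched. Cxcl15, Cxcl1 and Cxcl2 lie next to one another on chromosome 5, with 0 coding genes between neighbours, and Ccl2 and Ccl7 are adjacent on chromosome 11.

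Cxcl15 (lungkine), a neutrophil-attracting chemokine known from lung and uterine gland epithelium, was the member most reduced in both knockouts. Vehicle arrays of Ex3aERKO littermates read 10.60 and 9.59, and those of Ex3aERKO 5.54 and 5.54, which are both under control. In the ERaUtcKO experiment the vehicle arrays read 11.04, 10.35 and 8.83 in littermates and 6.22, 5.86 and 5.83 in knockouts, of which 1 of 3 was above control. The genotypes did not overlap in either experiment, under vehicle or any other treatment. Under vehicle the fitted difference was -4.55 ± 0.82 in Ex3aERKO (limma adjusted p 0.00373) and -4.11 ± 0.49 in ERaUtcKO (adjusted p 1.66e-05). Against the lowest level above control the Ex3aERKO vehicle group was at least 21.8-fold lower. The Ex3aERKO call was lost without littermate vehicle replicate 2 or knockout vehicle replicate 2, with the difference between -5.06 and -4.04 over all arrays left out in turn. Across treatments the difference of group means (knockout minus littermate) was between -4.55 and -3.27 in Ex3aERKO, and between -5.31 and -3.19 in ERaUtcKO.

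**Figure D1:**
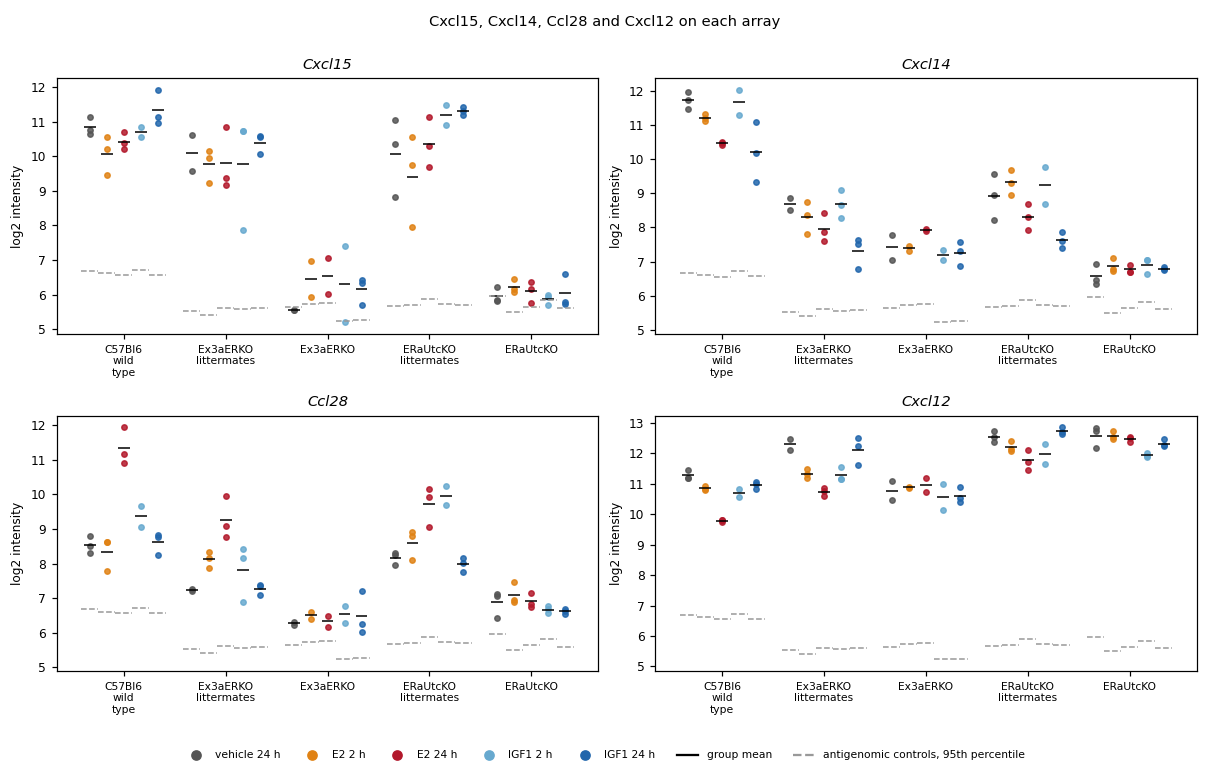
Log2 intensity of Cxcl15, Cxcl14, Ccl28 and Cxcl12 on each of 68 arrays (points, coloured by treatment) in the 5 lines, with group means as bars and the antigenomic 95th percentile as a dashed line. Cxcl15 of knockout arrays sits between 5.20 and 7.41, under the 7.88 of the lowest wild-type array.

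No comparison of Cxcl15 with vehicle passed in wild types. C57Bl6 vehicle arrays read 10.75, 10.65 and 11.14, E2 24 h arrays 10.21, 10.38 and 10.69, and IGF1 24 h arrays 11.92, 11.13 and 10.97. In all 3 wild-type lines IGF1 24 h had the highest group mean (11.34, 10.39 and 11.30) and E2 2 h the lowest (10.08, 9.78 and 9.42), yet every neighbour in that order overlapped the next. The differences were -0.56 ± 0.35 (limma adjusted p 0.22) and -0.12 ± 0.35 (adjusted p 0.791) at 2 h and 24 h of E2, and 0.18 ± 0.38 (adjusted p 0.765) and 0.69 ± 0.35 (adjusted p 0.112) at 2 h and 24 h of IGF1. In ERaUtcKO littermates the IGF1 24 h arrays lay above vehicle without overlap, by 1.23. At 24 h E2 against IGF1 gave -0.81 ± 0.34 (adjusted p 0.0722), which passed with quantile normalization (-0.92, adjusted p 0.0401) and on leaving out any 1 of 4 arrays: Ex3aERKO littermate E2 24 h 1 or IGF1 2 h 2, or ERaUtcKO littermate E2 2 h 1 or E2 24 h 3 (-0.95 to -0.81). Ex3aERKO littermate IGF1 2 h replicate 2, which stood apart for neutrophil markers, was the lowest wild-type array at 7.88. Without it the IGF1 2 h difference was 0.54 (adjusted p 0.23), and E2 against IGF1 at 2 h then passed at -1.11 (adjusted p 0.00869). Foxa2, a transcription factor of uterine glands, averaged 5.97 and 5.76 under vehicle in Ex3aERKO littermates and knockouts and 6.01 and 5.73 in the ERaUtcKO pair, close to the control level, so gland content could not be followed with these markers. Epcam, a general epithelial marker, averaged 11.34 and 11.65, and 11.52 and 11.35, in the same groups.

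Cxcl14, an epithelial and stromal chemokine of the CXC family that attracts monocyte-lineage and natural killer cells, fell with IGF1 at 24 h in wild types and was low in ERaUtcKO. In C57Bl6 the vehicle arrays read 11.73, 11.46 and 11.97 and the IGF1 24 h arrays 11.09, 10.18 and 9.34. Ex3aERKO littermates went from 8.51 and 8.85 to 7.53, 6.78 and 7.63, and ERaUtcKO littermates from 8.23, 8.96 and 9.55 to 7.40, 7.59 and 7.86. Vehicle and IGF1 24 h did not overlap in any wild-type line. The joint difference was -1.39 ± 0.21 (limma adjusted p 6.82e-07), with -1.52, -1.37 and -1.29 in C57Bl6, Ex3aERKO littermates and ERaUtcKO littermates. E2 at 24 h gave -0.86 ± 0.21 (adjusted p 0.000458), or -1.26, -0.72 and -0.62 by line. It did not pass in Ex3aERKO littermates alone (adjusted p 0.139) or ERaUtcKO littermates alone (adjusted p 0.14), and in the latter it overlapped vehicle. Neither ligand passed at 2 h, with -0.16 ± 0.21 for E2 (adjusted p 0.587) and 0.08 for IGF1 (adjusted p 0.827). E2 left the gene higher than IGF1 did at 24 h by 0.53 ± 0.20 (adjusted p 0.0428), a call lost on leaving out any of 8 arrays (range 0.42 to 0.66). These were C57Bl6 IGF1 replicate 3, Ex3aERKO littermate E2 replicates 1 and 3 and IGF1 replicate 2, and ERaUtcKO littermate E2 replicates 2 and 3 and IGF1 replicates 1 and 2, all at 24 h.

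In the knockouts Cxcl14 was already low. ERaUtcKO vehicle arrays read 6.47, 6.36 and 6.92, and the other 4 knockout groups averaged 6.77 to 6.91. The vehicle difference from littermates was -2.33 ± 0.28 (limma adjusted p 1.39e-05), and the knockout arrays lay below those of littermates under each treatment. Ex3aERKO vehicle arrays read 7.05 and 7.79, a difference of -1.26 ± 0.35 that did not pass (adjusted p 0.0643) but did with a filter on low levels (adjusted p 0.0482) and with the replicate number as a block (adjusted p 0.0205). IGF1 at 24 h gave -0.17 ± 0.32 in Ex3aERKO (adjusted p 0.819) and 0.20 ± 0.28 in ERaUtcKO (adjusted p 0.621). The difference between genotypes in that response was 1.20 ± 0.46 (adjusted p 0.5) and 1.5 ± 0.39 (adjusted p 0.158), so it did not pass in either line, although the 95% interval of the latter ran from 0.69 to 2.31 before adjustment.

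Ccl28, a mucosal epithelial chemokine that attracts IgA plasma cells and T cells, was the member raised most by E2 at 24 h. C57Bl6 arrays went from 8.29, 8.81 and 8.52 under vehicle to 11.16, 10.91 and 11.94. Ex3aERKO littermates went from 7.20 and 7.28 to 9.95, 8.76 and 9.08, and ERaUtcKO littermates from 7.96, 8.32 and 8.24 to 10.16, 9.06 and 9.92. No E2 24 h array overlapped vehicle in these lines. The rise was 2.12 ± 0.26 (limma adjusted p 7.19e-09), or 2.80, 2.03 and 1.54 by line, while 2 h of E2 gave 0.37 ± 0.26 (adjusted p 0.291). With IGF1 the joint wild-type difference passed at 2 h, 1.00 ± 0.28 (adjusted p 0.00441), and not at 24 h, -0.02 ± 0.26 (adjusted p 0.95). By line the 2 h difference was 0.83, 0.59 and 1.79. It did not pass in C57Bl6 alone (adjusted p 0.106) or in Ex3aERKO littermates alone (adjusted p 0.378), and in the latter it overlapped vehicle. The IGF1 2 h arrays read 9.67 and 9.07 in C57Bl6, 8.16, 6.89 and 8.43 in Ex3aERKO littermates, and 9.68 and 10.25 in ERaUtcKO littermates. The 6.89 belongs to the array with high neutrophil markers, without which the rise was 1.22 (adjusted p 0.000301). E2 against IGF1 at 2 h, -0.63 ± 0.27 (adjusted p 0.108), passed without that array (-0.85, adjusted p 0.0132). At 24 h E2 exceeded IGF1 by 2.14 ± 0.26 (adjusted p 1.28e-08). Luminal and general epithelial markers moved with Ccl28 at 24 h of E2: 7 of 9 were higher and 2 lower in wild types (56.2% of all genes passed), and 0 of 9 passed in either knockout (0% of all genes). Their mean level went from 10.64 to 11.91, 9.68 to 11.66 and 9.74 to 11.64 in the wild-type lines, 10.74 to 10.83 in Ex3aERKO and 10.06 to 10.39 in ERaUtcKO. Their part in the result was not tested.

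Neither response of Ccl28 passed in the knockouts. Ex3aERKO read 6.23 and 6.33 under vehicle and 6.18 and 6.49 at 24 h of E2. ERaUtcKO read 7.07, 7.13 and 6.44 under vehicle, 7.15, 6.74 and 6.84 at 24 h of E2 and 6.57, 6.68 and 6.77 at 2 h of IGF1. All of these lay below every littermate array of the same treatment. The difference between genotypes in the E2 24 h response was -1.97 ± 0.58 in Ex3aERKO (limma adjusted p 0.0242), lost on leaving out any of 6 arrays (Ex3aERKO or littermate vehicle, either replicate, or replicate 1 of E2 24 h in either genotype; range -2.22 to -1.63), and -1.51 ± 0.35 in ERaUtcKO (adjusted p 0.00208). For IGF1 at 2 h it was -2.0 ± 0.37 in ERaUtcKO (adjusted p 0.0108), lost without littermate IGF1 2 h replicate 2 (range -2.28 to -1.72). In Ex3aERKO the same difference was -0.34 (adjusted p 0.948), with a 95% interval from -1.55 to 0.88. Under vehicle Ccl28 was lower in ERaUtcKO (-1.29 ± 0.25, adjusted p 0.00288), and the Ex3aERKO difference of -0.96 ± 0.43 did not pass (adjusted p 0.322).

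Cxcl12 (SDF-1), the stromal ligand of Cxcr4, fell with E2 and, briefly, with IGF1. C57Bl6 arrays read 11.46, 11.20 and 11.19 under vehicle, 10.80, 10.81 and 10.91 at 2 h of E2 and 9.81, 9.79 and 9.73 at 24 h. Ex3aERKO littermates read 12.11 and 12.46 under vehicle and 10.76, 10.60 and 10.85 at 24 h of E2; for ERaUtcKO littermates these values were 12.52, 12.37 and 12.74, and 11.72, 12.10 and 11.45. E2 24 h had the lowest group mean in each of the 3 lines and did not overlap vehicle. The fall was -0.55 ± 0.12 at 2 h (limma adjusted p 0.000239) and -1.25 ± 0.12 at 24 h (adjusted p 1.96e-11). By line the E2 2 h difference was -0.44, -0.97 and -0.34. In ERaUtcKO littermates alone it overlapped vehicle and did not pass (adjusted p 0.195). IGF1 gave -0.71 ± 0.13 at 2 h (adjusted p 2.52e-05) and -0.08 ± 0.12 at 24 h (adjusted p 0.647). With quantile normalization the latter was -0.30 (adjusted p 0.0292). By line IGF1 gave -0.59, -1.01 and -0.57 at 2 h (adjusted p 0.0756 in ERaUtcKO littermates alone). At 24 h the values were -0.32 (adjusted p 0.022 in C57Bl6 alone), -0.17 and 0.19. Without Ex3aERKO littermate IGF1 2 h replicate 2, high in neutrophil markers, the 2 h fall was -0.68 (adjusted p 9.92e-05). E2 and IGF1 differed by -1.18 ± 0.12 at 24 h (adjusted p 2.47e-10).

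The 2 knockouts differed in their Cxcl12 level. Ex3aERKO vehicle arrays read 10.46 and 11.08, below littermates by -1.52 ± 0.29 (limma adjusted p 0.00548), a call lost without littermate vehicle replicate 3 or knockout vehicle replicate 2 (range -1.83 to -1.21). ERaUtcKO vehicle arrays read 12.73, 12.82 and 12.16 and overlapped littermates, with a difference of 0.03 ± 0.17 (adjusted p 0.954; 95% interval -0.33 to 0.39). After 24 h of E2 the arrays read 11.20 and 10.74 in Ex3aERKO and 12.50, 12.54 and 12.37 in ERaUtcKO. The E2 24 h response differed between genotypes by 1.75 ± 0.39 in Ex3aERKO (adjusted p 0.00423) and by 0.68 ± 0.25 in ERaUtcKO (adjusted p 0.036). The latter was lost with each array centred on its median (0.56, adjusted p 0.113) and on leaving out any of 7 arrays (range 0.48 to 0.85): littermate vehicle 1 or 3, littermate E2 24 h 1 or 3, knockout vehicle 3 and knockout E2 24 h 1 or 2. At 2 h of E2 the Ex3aERKO difference was 1.09 (adjusted p 0.0957) and passed with quantile normalization (1.27, adjusted p 0.0276). IGF1 at 2 h still lowered Cxcl12 in ERaUtcKO, to 11.91, 11.87 and 11.99 (-0.64 ± 0.17, adjusted p 0.006; -0.85 to -0.52 with 1 array left out), while Ex3aERKO gave -0.20 (adjusted p 0.746). Stromal markers moved along with Cxcl12 in part: 0 of 7 were higher and 7 lower at 2 h of E2 in wild types (40% of all genes passed), and 1 of 7 was lower under vehicle in Ex3aERKO (2.96% of all genes passed). At 24 h of E2, when Cxcl12 was lower, 4 of 7 were higher and 1 lower (56.2% of all genes passed), and the mean level of these markers went up, from 13.44 to 13.89, 11.79 to 12.46 and 11.73 to 12.64 by line. Their part in the result was not tested.

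Ccl2, the main attractant of monocytes through Ccr2, rose most with IGF1 at 2 h, in wild types and in both knockouts. C57Bl6 arrays went from 6.87, 7.14 and 7.32 to 8.20 and 8.29. Ex3aERKO littermates went from 7.09 and 7.50 to 9.85, 10.30 and 9.34, and Ex3aERKO from 7.28 and 6.91 to 8.80 and 9.24. ERaUtcKO littermates went from 7.97, 7.64 and 7.27 to 10.12 and 9.68, and ERaUtcKO from 7.74, 7.81 and 7.78 to 10.08, 10.27 and 9.62. IGF1 2 h had the highest mean in all 5 lines and no array of it overlapped vehicle. The rise was 2.10 ± 0.25 in wild types (limma adjusted p 3.52e-09; 1.14, 2.53 and 2.27 by line), 1.93 ± 0.29 in Ex3aERKO (adjusted p 0.000112) and 2.21 ± 0.35 in ERaUtcKO (adjusted p 2.19e-05). The genotypes did not differ in it at the threshold: the difference was -0.61 in Ex3aERKO (adjusted p 0.776; 95% interval -1.42 to 0.21) and -0.06 in ERaUtcKO (adjusted p 0.981; -1.13 to 1.02). These intervals still allow a rise that is 1 log2 unit smaller in a knockout. In ERaUtcKO every array at this time had a high reading of neutrophil or of fat, liver and pancreas markers. The rise there stayed between 2.07 and 2.40 on leaving out any array, which always keeps others of these.

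**Figure D2:**
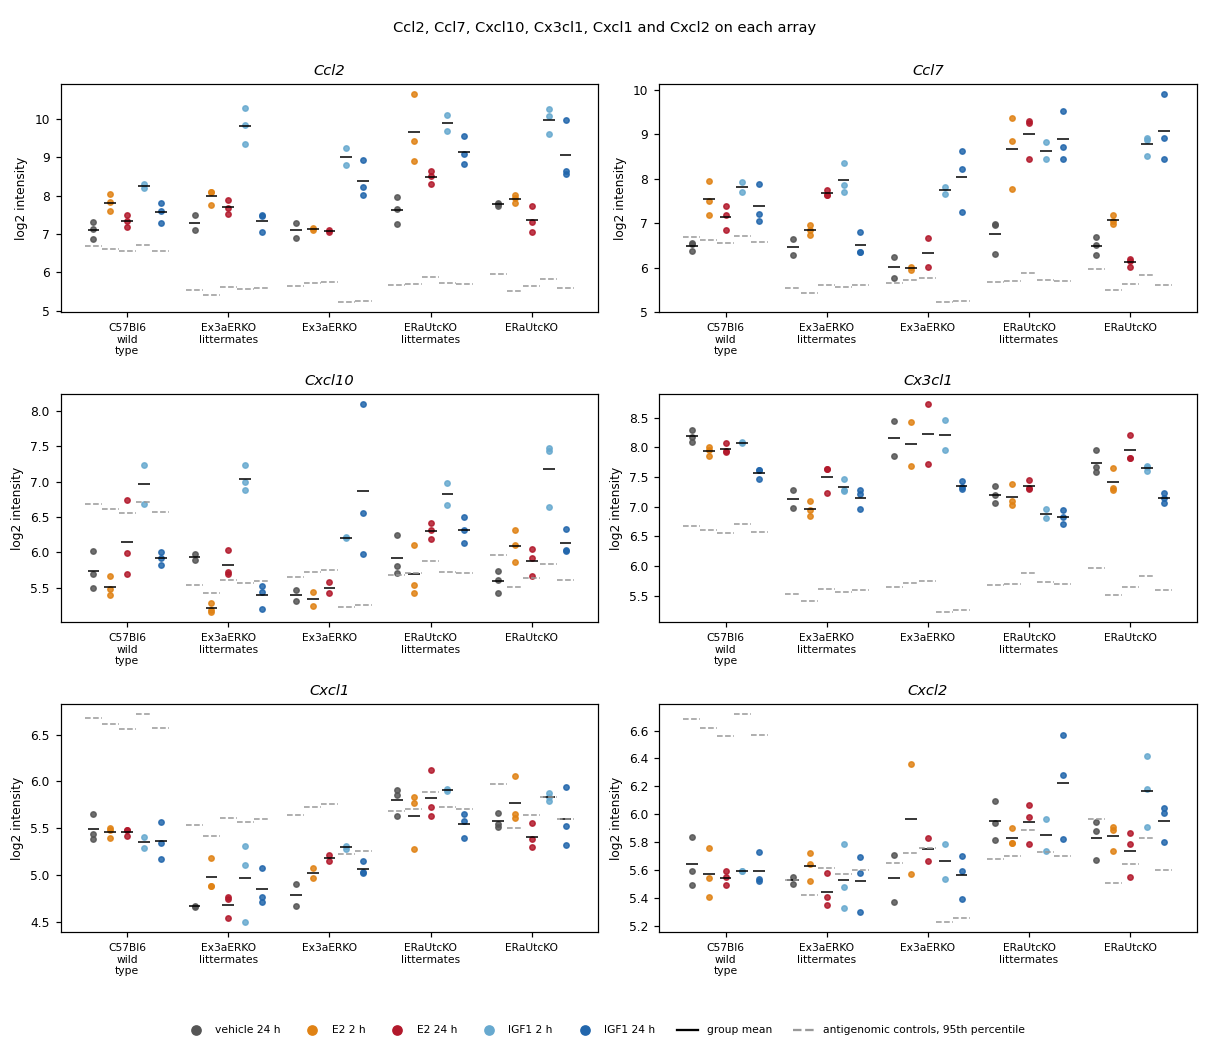
Log2 intensity of Ccl2, Ccl7, Cxcl10, Cx3cl1, Cxcl1 and Cxcl2 on each of 68 arrays (points, coloured by treatment) in the 5 lines, with group means as bars and the antigenomic 95th percentile as a dashed line. Ccl2 and Ccl7 after IGF1 stand above vehicle in knockouts, while Cxcl1 and Cxcl2 stay near or under the control level throughout.

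E2 raised Ccl2 at 2 h in wild types, and the difference from vehicle did not pass in either knockout. C57Bl6 arrays read 7.60, 7.83 and 8.04, Ex3aERKO littermates 8.11, 8.09 and 7.75, and ERaUtcKO littermates 10.65, 9.43 and 8.92. The rise was 1.17 ± 0.23 (limma adjusted p 5.16e-05), or 0.71, 0.69 and 2.04 by line (adjusted p 0.0658 in Ex3aERKO littermates alone), and E2 against IGF1 gave -0.94 ± 0.24 (adjusted p 0.00256). Ex3aERKO read 7.10 and 7.15 and ERaUtcKO 7.94, 8.01 and 7.81 at 2 h of E2. Their differences from vehicle were 0.03 (adjusted p 0.998; 95% interval -0.57 to 0.63) and 0.15 (adjusted p 0.969; -0.57 to 0.86). The genotypes differed in this response by -1.89 ± 0.49 in ERaUtcKO (adjusted p 0.00977), where leaving out any single array kept the call. In Ex3aERKO that difference, -0.66 ± 0.39, did not pass (adjusted p 0.389). At 24 h of E2 the wild-type difference of 0.52 ± 0.23 missed the threshold (adjusted p 0.0545) and passed with array centring (0.59, adjusted p 0.0307) and a filter on low levels (adjusted p 0.0457). The difference between genotypes at that time in ERaUtcKO, -1.27 ± 0.49 (adjusted p 0.0499), was lost on leaving out any of 20 of 29 arrays (range -1.46 to -1.09), including all 3 knockout vehicle and all 3 littermate E2 24 h arrays.

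At 24 h of IGF1 Ccl2 was above vehicle, by 0.70 ± 0.23 in wild types (limma adjusted p 0.0145), 1.30 ± 0.26 in Ex3aERKO (adjusted p 0.00175) and 1.29 ± 0.35 in ERaUtcKO (adjusted p 0.00539). By wild-type line the difference was 0.46, 0.04 and 1.52, so Ex3aERKO littermates (7.46, 7.50 and 7.06) lay at their vehicle level. Ex3aERKO arrays read 8.24, 8.92 and 8.02, all above those littermates. The difference between genotypes was 1.26 ± 0.37 and did not pass (adjusted p 0.315). ERaUtcKO arrays read 8.57, 8.66 and 9.98; the highest was the array with summed neutrophil markers of 15.10, and without it the rise was 0.84 and missed the threshold (adjusted p 0.0628). Without Ex3aERKO IGF1 24 h replicate 2 the Ex3aERKO rise was 1.04 (adjusted p 0.00885). Of 9 monocyte and macrophage markers, 0 passed in either direction in wild types at 2 h of E2 or IGF1 (40% and 35.9% of all genes passed), and 4 were higher at 24 h of IGF1 (40.9%). With IGF1, 1 was higher at 24 h in Ex3aERKO (18.6% of all genes passed), and 3 and 4 at 2 h and 24 h in ERaUtcKO (29.3% and 32.4%). Their summed level under vehicle and at 24 h of IGF1 was 13.85 to 14.88 and 14.22 to 15.43 in Ex3aERKO, and 14.08 to 15.84 and 14.82 to 15.77 in ERaUtcKO. Their part in the result was not tested.

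Ccl7, a ligand of Ccr2 and Ccr1 encoded beside Ccl2, also rose with IGF1 in wild types and both knockouts. In wild types IGF1 gave 1.67 ± 0.26 at 2 h (limma adjusted p 1.44e-06) and 1.08 ± 0.24 at 24 h (adjusted p 0.000471). Without Ex3aERKO littermate IGF1 2 h replicate 2, high in neutrophil markers, the 2 h rise was 1.56 (adjusted p 7.95e-06). By line the 2 h difference was 1.33 in C57Bl6, 1.50 in Ex3aERKO littermates and 1.88 in ERaUtcKO littermates. By line the 24 h difference was 0.89 in C57Bl6, 0.04 in Ex3aERKO littermates (adjusted p 0.951 in that line alone) and 2.15 in ERaUtcKO littermates. Ex3aERKO arrays read 5.77 and 6.24 under vehicle, 7.66 and 7.82 at 2 h of IGF1 and 7.25, 8.62 and 8.22 at 24 h. In ERaUtcKO the readings were 6.28, 6.51 and 6.70 under vehicle, 8.87, 8.92 and 8.51 at 2 h and 8.43, 8.91 and 9.89 at 24 h. Treated arrays lay above vehicle in both knockouts at both times. The rise was 1.74 ± 0.32 at 2 h (adjusted p 0.000856) and 2.02 ± 0.29 at 24 h (adjusted p 0.000119) in Ex3aERKO, and 2.27 ± 0.35 (adjusted p 1.95e-05; 2.16 to 2.40 with 1 array left out) and 2.59 ± 0.35 (adjusted p 4.68e-06) in ERaUtcKO. Without the 2 knockout arrays with high neutrophil markers the 24 h rises were 1.73 (adjusted p 0.00055) and 2.18 (adjusted p 6.7e-05). At 24 h Ex3aERKO stood above its littermates (6.81, 6.34 and 6.36) without overlap, but the difference between genotypes in the response, 1.98 ± 0.42, did not pass (adjusted p 0.135), except without Ex3aERKO IGF1 24 h replicate 1 (2.37, adjusted p 0.00743).

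E2 acted on Ccl7 in wild types at both times, by 1.17 ± 0.24 at 2 h (limma adjusted p 0.000123) and 1.42 ± 0.24 at 24 h (adjusted p 4.6e-06). By line the 2 h difference was 1.05, 0.38 (adjusted p 0.213 in Ex3aERKO littermates alone) and 1.91. At 24 h it was 0.64, 1.20 and 2.25. Since C57Bl6 vehicle arrays (6.53, 6.38 and 6.56) were not above control, a fold there is a bound: at least 1.81 and 1.36 for E2 and at least 2.2 and 1.62 for IGF1, at 2 h and 24 h. ERaUtcKO littermates read 6.99, 6.95 and 6.31 under vehicle and 8.45, 9.26 and 9.30 at 24 h of E2. ERaUtcKO read 6.14, 6.01 and 6.20 at that time, below its own vehicle arrays. The response differed between genotypes by -2.63 ± 0.50 (adjusted p 0.000298), the largest such difference among the members called, and no single array ended the call. In Ex3aERKO the same difference was -0.87 (adjusted p 0.186), with arrays at 6.67 and 6.0 after E2. At 2 h of E2 the ERaUtcKO difference from vehicle was 0.57 (adjusted p 0.718), and the genotypes differed by -1.35 (adjusted p 0.0776). The latter passed without littermate E2 2 h replicate 3 (-1.79, adjusted p 0.00985) or knockout IGF1 24 h replicate 3 (adjusted p 0.0457). Ccl2 and Ccl7 had a Pearson correlation of 0.84 over the 25 group means, taken relative to the mean of each experiment.

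Cxcl10, a ligand of Cxcr3 that attracts T and natural killer cells and is induced by interferons, rose with IGF1 at 2 h. It was above control on 35 of 68 arrays, and on 1 of 14 in C57Bl6. At 2 h of IGF1 the arrays read 6.68 and 7.24 in C57Bl6, 7.0, 6.88 and 7.24 in Ex3aERKO littermates, and 6.67 and 6.98 in ERaUtcKO littermates. Vehicle arrays read 5.50 to 6.02, 5.89 to 5.98 and 5.71 to 6.25 in the same lines, with no overlap. The fitted rise was 1.15 ± 0.14 (limma adjusted p 1.5e-08). In C57Bl6 the vehicle group was under control and only 1 of 2 IGF1 2 h arrays was above it, so no fold is given there. At 24 h the wild-type difference was 0.04 for IGF1 (adjusted p 0.82) and 0.26 ± 0.13 for E2 (adjusted p 0.103), the latter passing with array centring (0.33, adjusted p 0.0416) and quantile normalization (0.35, adjusted p 0.0359). E2 at 2 h gave -0.36 ± 0.13 (adjusted p 0.0299), a call lost on leaving out any of 5 arrays (range -0.42 to -0.30; C57Bl6 vehicle 3, Ex3aERKO littermate vehicle 2 or 3, ERaUtcKO littermate vehicle 1 or E2 2 h 3), with array centring (-0.27, adjusted p 0.128) and with quantile normalization (-0.31, adjusted p 0.084). The E2 and IGF1 responses at 2 h differed by -1.51 ± 0.14 (adjusted p 1.6e-11).

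Cxcl10 rose with IGF1 in the knockouts too. ERaUtcKO arrays went from 5.42, 5.74 and 5.61 to 7.44, 7.47 and 6.64 at 2 h (1.59 ± 0.20, limma adjusted p 1.27e-06; 1.45 to 1.86 with 1 array left out; at least 2.32-fold) and read 6.04, 6.33 and 6.02 at 24 h (0.54 ± 0.20, adjusted p 0.0447, lost on leaving out any of 9 arrays, among them each of the 3 IGF1 24 h arrays and knockout vehicle replicates 1 and 3; range 0.43 to 0.61). Ex3aERKO arrays went from 5.32 and 5.47 to 6.22 and 6.20 at 2 h, a difference of 0.82 ± 0.39 (adjusted p 0.183). At 24 h they read 5.97, 8.09 and 6.56, or 1.48 ± 0.35 above vehicle (adjusted p 0.00579; at least 2.34-fold). The 8.09 belongs to the array with summed neutrophil markers of 16.02. Without it the 24 h rise was 0.87 (adjusted p 0.00213) and the 2 h rise of 0.82 passed (adjusted p 0.00271). Without knockout vehicle replicate 2 the 24 h call was lost. The IGF1 2 h difference between genotypes did not pass, at -0.29 in Ex3aERKO (adjusted p 0.953; 95% interval -1.38 to 0.81) and 0.69 in ERaUtcKO (adjusted p 0.422; 0.06 to 1.31 before adjustment). At 24 h it was 2.02 ± 0.50 in Ex3aERKO and did not pass (adjusted p 0.209), but it passed without the array with high neutrophil markers (1.41, adjusted p 0.0261) or without IGF1 24 h replicate 1 (2.47, adjusted p 0.0328). At 2 h of E2 the ERaUtcKO arrays lay above vehicle without overlap, by 0.50 ± 0.20, which did not pass (adjusted p 0.443). The genotypes differed in that response by 0.73 ± 0.29 (adjusted p 0.0987). This difference passed without littermate E2 2 h replicate 2 (0.94, adjusted p 0.0289) or knockout IGF1 2 h replicate 3 (adjusted p 0.0448). Among 11 measured interferon-stimulated genes, 0 rose and 5 fell at 2 h of IGF1 in wild types (examples are Ifit3 at -1.01 and Gbp3 at -0.84), where 35.9% of all genes passed.

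Cx3cl1 (fractalkine), a membrane-tethered ligand of Cx3cr1 that is shed by Adam10 and Adam17, was the only member above littermates in both knockouts under vehicle. Ex3aERKO read 8.45 and 7.86 and its littermates 6.97 and 7.29; ERaUtcKO read 7.66, 7.95 and 7.59 and its littermates 7.07, 7.20 and 7.35. The genotypes did not overlap in either experiment. The difference was 0.53 ± 0.12 in ERaUtcKO (limma adjusted p 0.0135), lost without littermate vehicle replicate 1 or knockout vehicle replicate 2 (range 0.42 to 0.60). In Ex3aERKO it was 1.02 ± 0.28 and missed the threshold (adjusted p 0.0576), passing with quantile normalization (adjusted p 0.0407) and with a filter on low levels (adjusted p 0.0434). Cx3cl1 arrays of Ex3aERKO lay above littermates under all 5 treatments, and those of ERaUtcKO under 4, with overlap at 2 h of E2. Luminal and general epithelial markers also stood higher under vehicle, 4 of 9 in Ex3aERKO (median over the list 1.14, with 2.96% of all genes passing) and 1 of 9 in ERaUtcKO (4.17% of all genes), and 0 were lower. Their part in the result was not tested.

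IGF1 at 24 h lowered Cx3cl1. C57Bl6 arrays went from 8.17, 8.29 and 8.10 to 7.47, 7.63 and 7.62, and ERaUtcKO littermates from 7.07, 7.20 and 7.35 to 6.95, 6.70 and 6.83. Ex3aERKO littermates read 7.28, 7.21 and 6.97, level with their vehicle arrays. The joint difference was -0.35 ± 0.09 (limma adjusted p 0.00191; -0.62, 0.02 and -0.38 by line). It was -0.59 ± 0.12 in ERaUtcKO (adjusted p 0.000664), where arrays reached 7.15, 7.23 and 7.07. With 1 array left out the ERaUtcKO difference was between -0.66 and -0.48. In Ex3aERKO, with arrays at 7.33, 7.30 and 7.43, it was -0.80 ± 0.26 (adjusted p 0.0352), lost without knockout vehicle replicate 2, without any of the 3 IGF1 24 h arrays (range -1.10 to -0.50), or with the replicate number as a block (-0.79, adjusted p 0.0593). The joint wild-type difference at 24 h of E2 did not pass (0.08, adjusted p 0.458), with -0.21, 0.37 and 0.15 by line. In C57Bl6 alone the fall passed (adjusted p 0.0405) and did not overlap vehicle. E2 exceeded IGF1 at 24 h in wild types by 0.43 ± 0.09 (adjusted p 0.000156).

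Cxcl1 and Cxcl2, the neutrophil attractants that act through Cxcr2, were near or under the control level in every line. In C57Bl6 their group means lay -1.36 to -0.97 from it. Cxcl1 ranged from 4.50 to 6.13 and was above control on 12 of 68 arrays, 11 of them in the ERaUtcKO experiment and 0 of 28 in C57Bl6 and Ex3aERKO littermates. Cxcl2 ranged from 5.30 to 6.57 and was above control on 36 arrays, 0 of them C57Bl6. In wild types the 4 differences from vehicle lay between -0.09 and 0.08 for Cxcl1 and between -0.06 and 0.07 for Cxcl2. Neither passed in any of the 24 comparisons as fitted. Cxcl2 at 2 h of IGF1 in ERaUtcKO passed with array centring (0.40, limma adjusted p 0.0465) and quantile normalization (0.39, adjusted p 0.0445). Cxcl1 at 2 h of IGF1 in Ex3aERKO (0.51, adjusted p 0.08) had 1 of 2 treated arrays above control. It passed without littermate IGF1 2 h replicate 2 (adjusted p 0.0467) or replicate 3 (adjusted p 0.0164). On Ex3aERKO IGF1 24 h arrays, which include 1 with high neutrophil markers, Cxcl1 reached at most 5.15, under control on all 3, and Cxcl2 at most 5.70, above control on all 3. On ERaUtcKO IGF1 24 h replicate 3, also high in these markers, Cxcl1 read 5.94, above control and the highest of its group. At a level this close to control, or under it, a small change was not detectable.

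**Figure D3:**
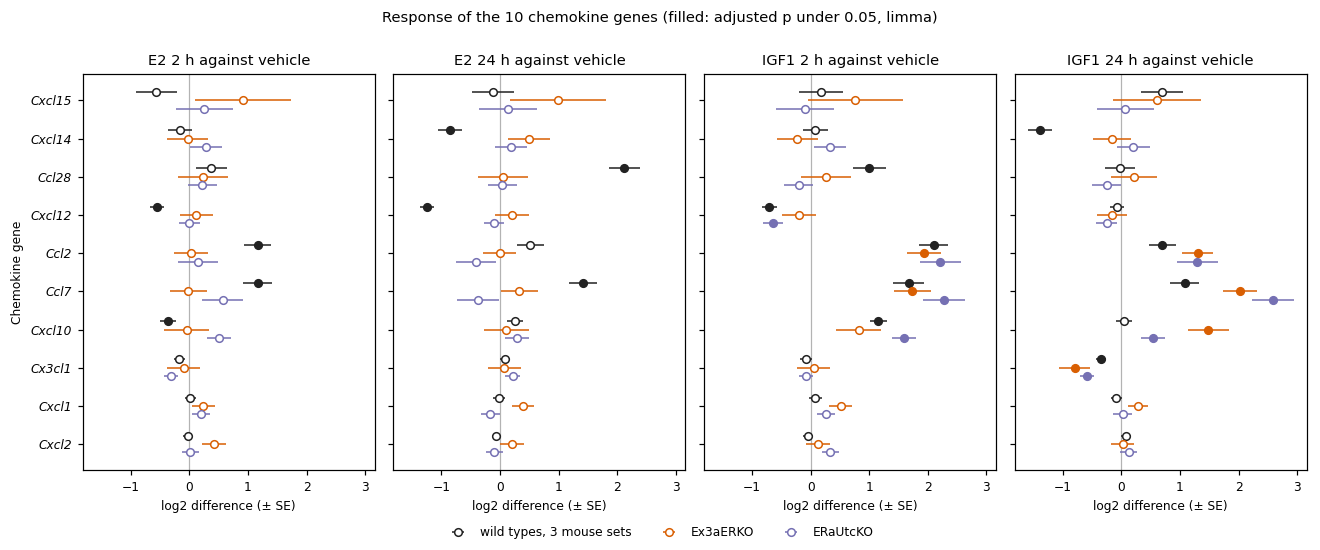
Fitted log2 difference from vehicle with its standard error for each chemokine gene at 2 h and 24 h of E2 and of IGF1, in wild types (black), Ex3aERKO (orange) and ERaUtcKO (purple); filled points passed the limma adjusted p of 0.05. In the E2 panels no knockout point is filled; in the IGF1 panels Ccl2 and Ccl7 are filled in all 3.

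Counted over the members, 4 of 10 passed at 2 h of E2 in wild types (2 higher, 2 lower), where 40% of all genes passed, and 4 of 10 at 24 h, where 56.2% did. IGF1 gave 5 of 10 at 2 h (4 higher, 1 lower), against 35.9% of all genes, and 4 of 10 at 24 h, against 40.9%. Of these shares only that for IGF1 at 2 h was above the share of all genes, and the number of responding members is no result about chemokines. E2 and IGF1 differed for 2 of 10 at 2 h (22% of genes) and 4 of 10 at 24 h (28.1%). In the knockouts E2 moved 0 of 10 members at either time by limma. At an unadjusted p under 0.05 this count was 0 at both times in Ex3aERKO, and 2 at 2 h and 0 at 24 h in ERaUtcKO. Over all genes 0.149% and 0% passed in Ex3aERKO and 0.491% and 0% in ERaUtcKO, with 4166 and 1151 genes at an unadjusted p under 0.05 at 24 h. IGF1 moved 2 of 10 at 2 h and 4 of 10 at 24 h in Ex3aERKO (15.7% and 18.6% of genes), and 4 of 10 at both times in ERaUtcKO (29.3% and 32.4%). The median over the members at 2 h of IGF1 was 0.13 in wild types, 0.38 in Ex3aERKO and 0.29 in ERaUtcKO, beside -0.04, 0.01 and -0.04 over all genes.

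Knockouts against littermates under vehicle gave 2 of 10 in Ex3aERKO, both lower, where 2.96% of genes passed, and 4 of 10 in ERaUtcKO (1 higher, 3 lower), where 4.17% did. At an unadjusted p under 0.05 the Ex3aERKO count was 5. The median over the members was -0.50 in Ex3aERKO and -0.24 in ERaUtcKO, and 0.02 and -0.05 over all genes. Because the members were chosen with earlier results of these data known, these shares and medians are no result about chemokines. For E2 the genotypes differed in response for 0 of 10 members at 2 h (1 unadjusted) and 2 of 10 at 24 h in Ex3aERKO, with 9.43% and 16.8% of genes, and for 1 and 4 of 10 in ERaUtcKO, with 13.8% and 32.9%. For IGF1 they differed in Ex3aERKO for 0 of 10 at 2 h (0 unadjusted; 0% of genes, 2247 unadjusted) and 0 of 10 at 24 h (5 unadjusted; 0.0133%). In ERaUtcKO they differed for 1 of 10 at 2 h, Ccl28, where 0.511% of genes passed, and 0 of 10 at 24 h (1 unadjusted; 0.0498%). The comparisons of one experiment share their vehicle arrays.

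**Figure D4:**
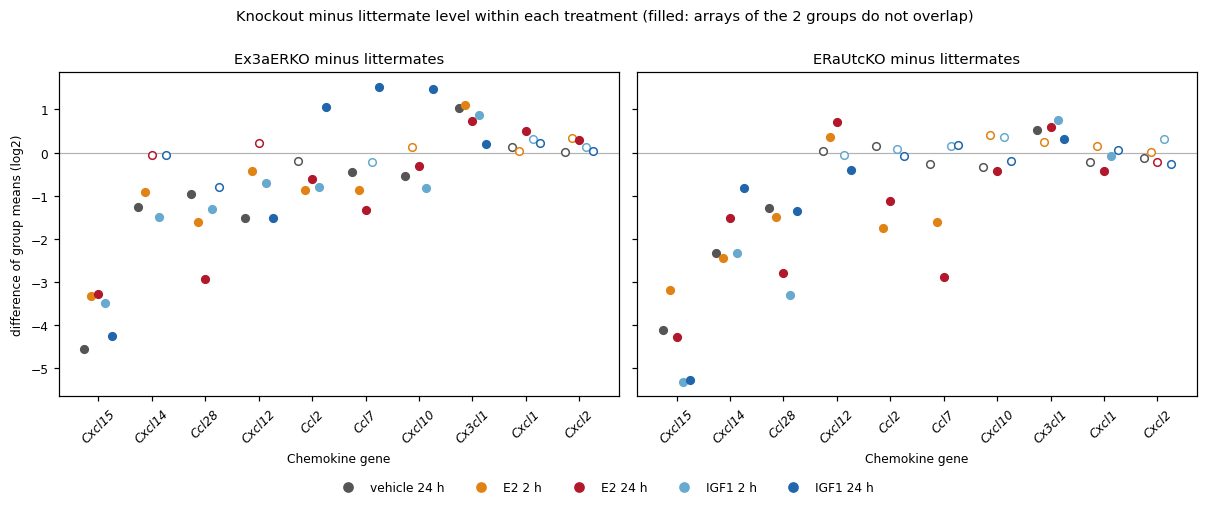
Difference of group means (knockout minus littermate, log2) for each chemokine gene under each of 5 treatments in the Ex3aERKO and ERaUtcKO experiments; filled points mark groups whose arrays do not overlap. Cxcl15 is filled and negative throughout, from -3.19 to -5.31, and Ccl7 ranges from -2.88 to 1.52.

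Among the other chemokine ligands, 26 of 27 listed genes were measured. In wild types 3 were higher and 2 lower at 2 h of E2, 6 and 12 at 24 h of E2, 3 and 3 at 2 h of IGF1, and 6 and 6 at 24 h of IGF1. Over all genes 40%, 56.2%, 35.9% and 40.9% passed in the same comparisons. Ccl12, a mouse ligand of Ccr2 encoded near Ccl2 and Ccl7, rose by 2.89 ± 0.26 at 2 h of E2 (limma adjusted p 2.46e-12) and 2.75 ± 0.28 at 2 h of IGF1 (adjusted p 8.7e-11). In the knockouts its IGF1 2 h rise was 3.45 ± 0.43 in Ex3aERKO (adjusted p 2.08e-05) and 3.00 ± 0.41 in ERaUtcKO (adjusted p 3.93e-06), and its E2 2 h response differed between genotypes by -3.15 ± 0.58 in ERaUtcKO (adjusted p 0.000507). Cxcl16, a transmembrane ligand of Cxcr6, rose by 0.99 at 2 h of E2 and was lower under vehicle in both knockouts, by -1.31 ± 0.16 (adjusted p 0.000167) and -1.02 ± 0.13 (adjusted p 3.86e-05). At 24 h of E2, Cxcl17 (2.84) and the eosinophil attractant Ccl11 (2.28) led the rises and the interferon-induced Cxcl9 (-1.22) the falls. In the 4 E2 comparisons within knockouts, 0 of these 26 ligands passed in either direction; of all genes, 0.149% and 0% passed in Ex3aERKO and 0.491% and 0% in ERaUtcKO, at 2 h and 24 h.

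Of 18 listed receptors 17 were measured. Cxcr4, the receptor of Cxcl12, fell with its ligand in wild types, by -2.36 ± 0.21 at 2 h of E2 (limma adjusted p 2.2e-12), -1.47 ± 0.21 at 24 h of E2 (adjusted p 1.43e-07) and -1.63 ± 0.23 at 2 h of IGF1 (adjusted p 1.29e-07). IGF1 at 2 h lowered it in Ex3aERKO by -2.25 ± 0.48 (adjusted p 0.00288) and in ERaUtcKO by -2.06 ± 0.32 (adjusted p 1.79e-05). Dpp4, a peptidase that cleaves Cxcl12, fell by -0.90 ± 0.13 at 2 h of E2 (adjusted p 1.97e-07) and -0.67 ± 0.14 at 2 h of IGF1 (adjusted p 0.000123). Receptors counted 0 higher and 3 lower at 2 h of E2, 0 and 6 at 24 h of E2, 0 and 4 at 2 h of IGF1, and 1 and 3 at 24 h of IGF1. The shares of all genes that passed were 40%, 56.2%, 35.9% and 40.9% in that order. Of 5 atypical receptors 3 were measured, and Ccrl2, which binds chemerin, was lower in all 4 wild-type comparisons (-1.40, -0.96, -1.11 and -0.99). Adam10 and Adam17, the sheddases of Cx3cl1, rose by 0.60 and 0.52 at 24 h of E2. Of 21 measured NF-kB and early inflammatory genes, 13 were higher and 4 lower at 2 h of E2 in wild types and 11 and 1 at 2 h of IGF1, where 40% and 35.9% of all genes passed. At 2 h of IGF1 the counts were 7 and 1 in Ex3aERKO and 9 and 1 in ERaUtcKO, and at 2 h of E2 they were 1 and 0, and 0 and 0. The shares of all genes in the knockouts were 15.7% and 29.3% for IGF1, and 0.149% and 0.491% for E2.

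The genes most like each member were sought over the 25 group means, taken relative to the mean of each experiment, among 18137 genes; the groups share vehicle tissue and genotype, and these correlations are a description. For Cxcl15 they were Egfl6 (r = 0.95), Mia (0.95) and Wfdc15b (0.93), and for Ccl28 they were Rnf128 (0.93), Slc39a4 (0.92) and Atp10b (0.92). Cxcl14 was most like Dcdc2a (0.87), Stra6l (0.83) and Dleu7 (0.80), and Cxcl12 most like Rbms3 (0.91), Ebf1 (0.88) and Arhgap6 (0.88). The nearest to Ccl2 were Foxk2 (0.93), Ankrd40 (0.92) and Ywhag (0.92), and to Ccl7 they were Copb1 (0.94), Slc35b1 (0.93) and Cul2 (0.93). Cxcl10 was nearest to Nav1 (0.85), Slc9a3r2 (0.85) and Nlk (0.85), and Cx3cl1 to Klf5 (0.90), Ttc39b (0.90) and Rasef (0.90). Between members, Cxcl15 ran with Ccl28 (0.73) and Cxcl14 (0.69) and opposite to Cx3cl1 (-0.76).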

How the data were processed

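Uterine RNA was purified with Trizol and a Qiagen column and labelled with the Affymetrix WT Plus kit, per the labels' protocols. The authors deposited 1 table of log2 intensities for 72688 probe sets on 68 arrays; its summarisation and normalization are not given in the sources used here, and its highest value is 19.9315. The count of values close to that maximum differed between arrays. In ERaUtcKO littermates it was 0 on every vehicle array and 39 to 53 on every treated array. In ERaUtcKO it was 0 on all vehicle and E2 24 h arrays and 53 to 55 at 2 h of IGF1. Ex3aERKO arrays had 94 and 95 under vehicle and 0 at 24 h of E2. In these lines the count thus differs along with treatment. Its part in the responses and in the genotype differences at 24 h of E2 was not tested. The annotation named 32750 probe sets, 30604 with 1 symbol and 2146 with several, and left 39938 unnamed; 827 symbols were updated through RefSeq. The probe set with the highest mean stood for a gene (355 genes had several), which gave 30142 genes. Antigenomic probe sets set the control level. The number of arrays limits the precision.

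The limma fits (limma 3.58.1, R 4.3.3) covered wild types (42 arrays, treatment plus mouse set, 35 residual degrees of freedom), the Ex3aERKO experiment (25 arrays, 15) and the ERaUtcKO experiment (29 arrays, 19), with Benjamini-Hochberg adjustment over 30142 genes. The fits were tested on simulated data. A fold against a group under control is a bound, taken against the lowest level above control. Members and lists were chosen with earlier results of these data known. All 10 members were eligible to be named in every comparison; other genes are at most the 3 largest rises and falls called per list and the 3 most like each member, with Esr1 and Greb1 as checks. Alternatives were array centring, quantile normalization, a filter on low levels, limma with trend and robust options, the mean of probe sets, a replicate block, each wild-type set alone, and leaving out each array. Replicate numbers did not pair the arrays: the median correlation of same-numbered deviations was -0.14 to 0.01 by line, and 21 of 68 arrays correlated best with their own number. Python 3.11.15, pandas 2.3.3, numpy 2.4.6 and matplotlib 3.10.9 were used.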

Additional observations from a re-analysis of the deposited data

Results flagged for a closer look

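Responses that differed between a knockout and its littermates by the limma interaction test were the following. At 24 h of E2 in the Ex3aERKO experiment these were Ccl28 (-1.97) and Cxcl12 (1.75). At 2 h of E2 in the ERaUtcKO experiment this was Ccl2 (-1.89). At 24 h of E2 in the ERaUtcKO experiment these were Ccl28 (-1.51), Cxcl12 (0.68), Ccl2 (-1.27) and Ccl7 (-2.63). At 2 h of IGF1 in the ERaUtcKO experiment this was Ccl28 (-2.0).

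In 3 cases every treated array of the knockout lay beyond all of its vehicle arrays on one side and every treated littermate array beyond all of theirs on the other, a pattern that was not tested as such. These were Cxcl14 at 24 h of E2 in the Ex3aERKO experiment, with a limma interaction of 1.21 (adjusted p 0.0924), Cxcl10 at 24 h of IGF1 in the same experiment, with 2.02 (adjusted p 0.209; 1.41, adjusted p 0.0261, without the knockout array with high neutrophil markers), and Ccl7 at 24 h of E2 in the ERaUtcKO experiment, with -2.63 (adjusted p 0.000298). With all arrays the last passed. Every member was looked at under each treatment in both experiments, and how often all genes show this pattern was not counted. Groups of 2 or 3 arrays separate readily, so the number of cases is no result about chemokines.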

How the results depend on the processing

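Of 240 member results, 235 kept their side of the threshold with array centring, 229 with quantile normalization and 237 with a replicate block, as did 222 of 225 with the filter on low levels and all 240 with trend and robust options or the mean of probe sets. None of these reversed a called direction. Leaving out 1 array kept 7271 of 7380, with 68 calls lost and 41 gained. The counts of members that passed moved as follows, and the cause was not tested. For E2 at 2 h in wild types the count of 4 became 2 in Ex3aERKO littermates alone and 2 in ERaUtcKO littermates alone. For E2 at 24 h the count of 4 became 6 with array centring, 5 with quantile normalization or the filter, 5 in C57Bl6 alone and 3 in either littermate set alone, and for IGF1 at 24 h the count of 4 became 2 in Ex3aERKO littermates alone. In Ex3aERKO against littermates under vehicle the count of 2 became 4 with the filter and 3 with the replicate block, and the genotype difference in the E2 2 h response went from 0 to 1 with quantile normalization. The block also gave 3 for IGF1 at 24 h in Ex3aERKO and 3 for the genotype difference at 24 h of E2 in ERaUtcKO, against 4 each, and left the other counts as they were. Leaving out 1 array gave 0 to 4 for Ex3aERKO under vehicle, 2 to 4 for E2 against IGF1 at 2 h, 1 to 2 for the genotype difference at 24 h of E2, 2 to 4 for IGF1 at 24 h and 0 to 2 for the genotype difference at 24 h of IGF1 in Ex3aERKO. In ERaUtcKO it gave 1 to 2 and 2 to 4 for the genotype difference at 2 h and 24 h of E2, 0 to 1 for that at 2 h of IGF1, and 2 to 4 for IGF1 at 24 h. Within 1 wild-type set, 3 results turned: Cx3cl1 at 24 h of E2 in C57Bl6 (-0.21, limma adjusted p 0.0405), and Cxcl10 (-0.54, adjusted p 0.0365) and Cx3cl1 (0.022, adjusted p 0.966) at 24 h of IGF1 in Ex3aERKO littermates. Signal over control limits Cxcl1, Cxcl2 and Cxcl10.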
